A study of Homo sapiens with 8 samples.

Results

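This report describes 3506 promoter peaks of the transcription factor Sp1 that were called with 1 of 2 Sp1 antibodies and not with the other. The data are chromatin immunoprecipitation sequencing (ChIP-seq) peak lists from the human osteosarcoma line U-2 OS. The peaks were selected on measured values, since the rule took antibody 1 peaks on the autosomes and X that shared no base pair with an antibody 2 peak and whose summit lay within 1 kb of an annotated transcript start. They made up 40.8% (95% Wilson interval 39.7 to 41.8%) of the 8602 antibody 1 peaks on these chromosomes and 48.3% (47.1 to 49.4%) of the 7261 antibody 1 promoter peaks. The other 3755 antibody 1 promoter peaks shared at least 1 bp with an antibody 2 peak and are called shared peaks below.

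Both Sp1 libraries, each made with a different rabbit antibody, and the normal rabbit IgG control came from a U-2 OS line with the endogenous knock-in V5-Halo-SP1, although the sample titles call these cells parental. CTCF was pulled down from clone C32, a single U-2 OS clone with the knock-in FLAG-Halo-CTCF, in 2 replicates, whereas the series description gives wild-type cells. All cells were crosslinked in 1% formaldehyde for 6 min, with no other treatment. Each Sp1 antibody gave 1 library, so no difference between antibodies has a replicate check, and no p-value was computed. The lists hold no read counts, and read numbers of the libraries were not used here. Wilson intervals therefore cover counting error over peaks or genes only, and neighboring peaks and genes are not independent.

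Sp1 is a zinc finger activator that recognizes GC boxes, short G-rich elements found upstream of many start sites in CpG islands. Such promoters serve housekeeping and regulated genes alike, and other factors with their own recognition elements share them. Among these are BANP, which binds the CGCG element, NRF1, which is known for genes of mitochondrial function, the ETS family and the CCAAT-binding factor NF-Y.

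Summit sequences are shown first because the strongest of these peaks differed from the shared peaks in the elements they held. Each window covers the antibody 1 summit and 50 bp to either side in hg38, lies outside annotated exons and is written 5′ to 3′ on the strand given. The CGCG element was sought as TCGCGAGA, and PTPN4 (a protein tyrosine phosphatase), MAP2K2 (the MAP kinase kinase MEK2), TUBGCP5 (a subunit of the γ-tubulin complex), TMEM209 and MAP10 are among the strongest peaks that hold it. Capitals mark every match on either strand, so a longer capital run is the palindrome formed by overlapping matches. The windows are chr2:119759654-119759754 on the plus strand for PTPN4, chr19:4124134-4124234 on the minus strand for MAP2K2, chr15:23039588-23039688 on the plus strand for TUBGCP5, chr7:130205449-130205549 on the plus strand for TMEM209 and chr1:232805310-232805410 on the plus strand for MAP10.
PTPN4: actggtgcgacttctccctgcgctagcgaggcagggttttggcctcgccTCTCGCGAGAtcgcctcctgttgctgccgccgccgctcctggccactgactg
MAP2K2: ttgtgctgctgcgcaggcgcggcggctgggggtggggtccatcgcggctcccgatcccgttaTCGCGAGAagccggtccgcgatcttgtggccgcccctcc
TUBGCP5: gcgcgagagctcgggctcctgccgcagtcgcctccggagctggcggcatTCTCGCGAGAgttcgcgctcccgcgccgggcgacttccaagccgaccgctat
TMEM209: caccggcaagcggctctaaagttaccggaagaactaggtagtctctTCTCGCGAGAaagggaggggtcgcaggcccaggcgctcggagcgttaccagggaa
MAP10: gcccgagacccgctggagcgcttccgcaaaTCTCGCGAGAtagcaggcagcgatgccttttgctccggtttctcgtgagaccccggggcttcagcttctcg

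The next 2 windows hold the NRF1 core, sought as CGCATGCG and shown in capitals. They belong to ANKRD26 and to GRB2 (the adaptor that links growth factor receptors to Ras). The positions are chr10:27100497-27100597 and chr17:75405788-75405888, both on the plus strand.
ANKRD26: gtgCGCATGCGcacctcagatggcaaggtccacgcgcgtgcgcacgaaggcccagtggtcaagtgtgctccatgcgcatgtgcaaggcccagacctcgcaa
GRB2: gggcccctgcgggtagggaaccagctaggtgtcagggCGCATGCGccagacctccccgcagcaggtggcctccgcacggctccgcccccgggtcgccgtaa

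GC boxes, sought as GGGCGG, are in capitals in the windows of RFX2 (a factor for genes of cilia) and CCDC110. The RFX2 window, chr19:6199576-6199676 on the minus strand, holds 1 match, and the CCDC110 window, chr4:185471176-185471276 on the plus strand, holds 8.
RFX2: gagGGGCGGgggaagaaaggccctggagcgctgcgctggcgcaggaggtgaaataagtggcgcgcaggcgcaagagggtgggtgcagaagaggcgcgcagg
CCDC110: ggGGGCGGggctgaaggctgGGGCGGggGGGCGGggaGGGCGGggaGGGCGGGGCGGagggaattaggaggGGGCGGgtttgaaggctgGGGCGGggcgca

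A CCAAT box (CCAAT) is marked in NDRG4, chr16:58495246-58495346 on the plus strand, and an ETS core (CCGGAA) in SEPTIN10, chr2:109614150-109614250 on the plus strand. These elements were less frequent than in shared peaks, as given below.
NDRG4: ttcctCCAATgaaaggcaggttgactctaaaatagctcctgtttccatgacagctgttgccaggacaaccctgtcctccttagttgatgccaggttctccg
SEPTIN10: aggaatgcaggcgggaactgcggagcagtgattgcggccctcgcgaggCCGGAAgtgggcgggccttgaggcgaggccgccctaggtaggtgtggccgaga

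The antibody 1 only promoter peaks were weaker and narrower than the shared ones. The values of antibody 1 chose the peaks, so they are a description. Fold enrichment over control, a ratio given by the authors' peak caller, had a median of 6.72, with quartiles of 5.10 and 9.07 and a range from 1.85 to 761. For shared peaks the median was 10.6, with quartiles of 7.25 and 16.0. The median width was 457 bp against 656 bp, and the median −log10 q was 10.4 against 25.3. All antibody 1 peaks were ranked by fold and cut into 4 bands of equal number. The antibody 1 only group took 22.4% of the promoter peaks in the strongest band, then 42.3%, 63.3% and 72.7% in the weaker ones. These bands held 444, 832, 1183 and 1047 of the 3506 peaks, and the strongest began at a fold of 12.2.

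**Figure D1:**
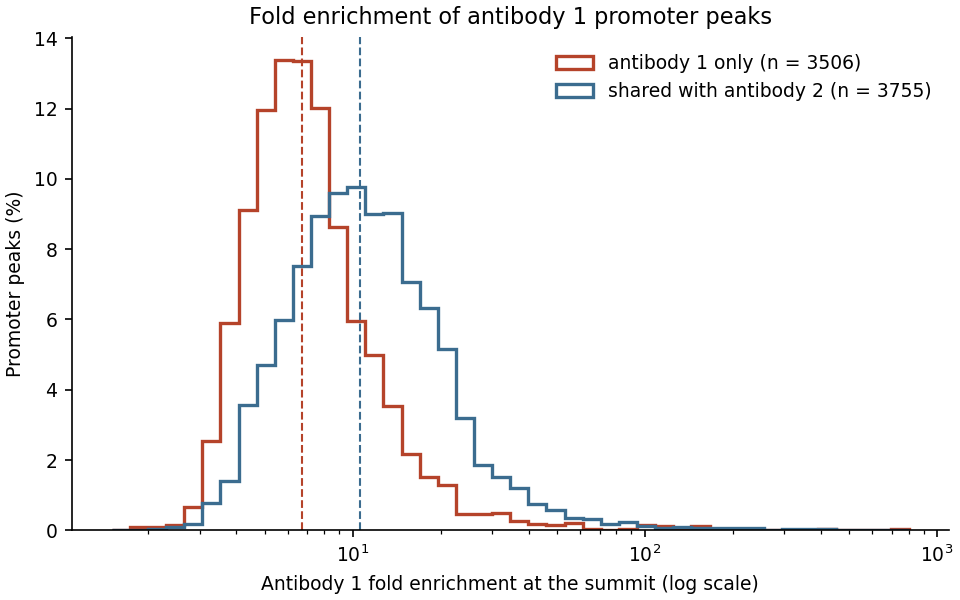
Distribution of antibody 1 fold enrichment (log axis) in percent of promoter peaks, for 3506 antibody 1 only peaks and 3755 peaks shared with antibody 2. Dashed lines mark the medians of 6.72 and 10.6, and both groups reach folds above 100.

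Most of these peaks were far from any antibody 2 peak. The nearest antibody 2 peak lay a median of 76014 bp away, and 115 peaks (3.28%) had one within 1 kb. The rule left out every overlap, and the antibody 2 list held 5973 peaks in all, so long distances follow in part from both. Just inside the limit set by the rule, the peaks of YWHAZ (a 14-3-3 protein), HLA-F and ZNF497 ended 24, 28 and 39 bp from an antibody 2 peak. Just outside it, ENSG00000249406, BOLA1 and WDR7 shared 7, 9 and 19 bp with one. For the distance to a start, peaks just inside included those of MIR130AHG at 996 bp and DUX4L14 at 984 bp, and the first outside were AHDC1 at 1001 bp, NR1H2 at 1002 bp and ENSG00000289915 at 1006 bp. IgG peaks overlapped 0 of the 3506 peaks, which allows a share of up to 0.109% by the Wilson interval, and 3 of the shared peaks. The IgG list held 106 peaks in all, so little overlap was possible and this is a weak check of background.

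Although weak peaks dominated by number, a small set of very strong peaks was also missing from the antibody 2 list. The highest fold in the entire antibody 1 list, 761, was at a start of the lncRNA ENSG00000235078 on chromosome 2, where the nearest antibody 2 peak was 54876 bp away. Other lncRNA starts among the 10 strongest were GPRC5D-AS1, with a fold of 154, and FLJ43315, with 151. A peak of fold 115 lay at the starts of the pseudogene CUTALP and of PSMD5, an assembly chaperone of the proteasome.

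Of peaks whose nearest start was that of a protein-coding gene, which leaves out the peak at CUTALP and PSMD5, the 20 strongest, 1 per gene, had folds from 54.9 to 416 and a −log10 q of at least 210. RFX2 led with a fold of 416, a value far above the 161 of PTPN4 in second place. Folds between 95 and 148 followed at ANKRD26, ZZZ3 (a subunit of the ATAC histone acetyltransferase complex), STXBP4, MAP2K2, XRCC5 (the Ku80 protein of DNA end joining), N6AMT1, EXOC8 (an exocyst subunit), TUBGCP5, SRSF10 (a splicing regulator) and TMEM209. The remaining genes were MRPL57 of the mitochondrial ribosome, GAS8, NCOA4 (a receptor for ferritin turnover), ANKFY1, VDAC3 (a channel of the outer mitochondrial membrane), MOK, MAP10 and NPRL3. The nearest antibody 2 peak was at least 11294 bp away from each of these 20, with a median of 123915 bp. These distances too follow in part from the rule and the length of the antibody 2 list. All but GAS8 had the summit upstream of the start, and all but PTPN4 had it within 100 bp.

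The CGCG element or the NRF1 core lay at the summit of 18 of these 20 genes. The CGCG element was in 13, the NRF1 core in 5 and a GC box in 4. RFX2 and XRCC5 had neither of the first pair. The RFX2 window held a GC box, and the XRCC5 window an ETS core. Among the 20 strongest peaks with a nearest start of any class, 15 held the CGCG element or the NRF1 core. The lncRNA peaks at ENSG00000235078, GPRC5D-AS1 and FLJ43315 held neither.

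**Figure D2:**
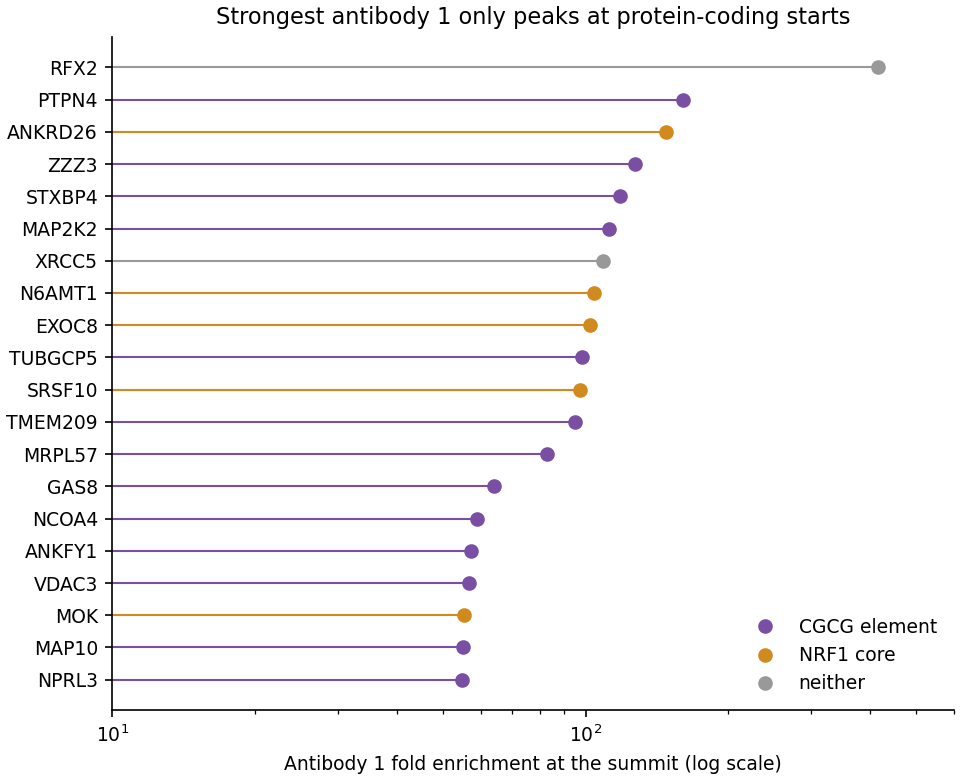
Antibody 1 fold enrichment (log axis) of the 20 strongest antibody 1 only peaks whose nearest start was protein-coding, 1 per gene (PSMD5, whose peak lay nearer to CUTALP, is not among them). Color gives the element within 50 bp of the summit: CGCG element in 13, NRF1 core in 5 and neither in 2, RFX2 and XRCC5.

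The CGCG element and the NRF1 core thinned out quickly down the ranking of all 3506 peaks by fold. Among the strongest 50, 27 (54.0%, 40.4 to 67.0%) held the CGCG element and 9 (18%, 9.77 to 30.8%) the NRF1 core. Among the strongest 100 the numbers were 48 and 16, and among the strongest 500 they were 89 and 45. Over all peaks the element was in 118 (3.37%, 2.82 to 4.02%) and the core in 110 (3.14%, 2.61 to 3.77%), and 3 peaks held both. At protein-coding start sites, with windows of the same length, the shares were 0.696% and 1.21%. In the windows 500 bp to either side of the summits the CGCG element occurred in 0.0285%. The CGCG element was included because earlier results on these same antibody 1 peaks had singled it out, so its frequency is not independent evidence.

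Set against shared peaks of the same fold band, the contrast was in the strong peaks. In the strongest band the CGCG element occurred in 18.9% of antibody 1 only peaks (15.5 to 22.8%) and 5.91% of shared peaks (4.83 to 7.20%). The NRF1 core occurred in 9.91% (7.47 to 13%) and 2.73% (2.02 to 3.66%). In the next band the CGCG element was at 3.37% (2.34 to 4.82%) against 0.970% (0.542 to 1.73%), whereas the intervals for the NRF1 core overlapped. In the band just below the median fold the CGCG element was at 0.423% (0.181 to 0.986%) against 1.02% (0.495 to 2.09%). In the weakest band 1 of 1047 antibody 1 only peaks held it, against 2 of 394 shared peaks. Intervals of the groups overlapped in both of these bands, for the NRF1 core as well. Without regard to fold the CGCG shares were alike, at 3.37% against 2.96% (2.46 to 3.55%) in shared peaks, while for the NRF1 core they were 3.14% against 1.78% (1.41 to 2.26%). Antibody 2 only promoter peaks, 719 in number, held these elements in 1 and 3 cases.

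Peaks with these elements also had other features in common. The 118 peaks with the CGCG element had a median fold of 19.7 against 6.60 without it, and 71.2% of them were in the strongest band. Of the 111 shared peaks with the element, 91 were in that band too. The element was a median of 8.5 bp from the summit and within 20 bp in 77.1%. Shared peaks with it had the same median and 74.8% within 20 bp. In 58 of the 118 (49.2%) it was the full palindrome of 10 bases, as in the PTPN4, TUBGCP5, TMEM209 and MAP10 windows above. Of the 111 shared ones, 36 (32.4%) held the full palindrome. A GC box accompanied the element in 29.7% (22.2 to 38.4%) of the 118 peaks, below the 52.7% of all 3506 peaks. The summit was within 100 bp of the start in 82.2%, against 60.0% of all. For the 110 peaks with the NRF1 core the median fold was 9.94, a GC box was present in 41.8% (33.0 to 51.2%) and 79.1% were within 100 bp of the start.

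Among the genes named by gene list or motif, those with a CGCG element under an antibody 1 only peak included ATP5F1C, a subunit of ATP synthase (fold 27.4), COX7B of cytochrome oxidase (27.1), MED1 of the Mediator complex (30.7), TRAPPC2 of the TRAPP tethering complex (39.0), the dynactin subunit DCTN2 (30.1) and the peroxiredoxin PRDX1 (32.8). A single peak of fold 16.9 lay between RPL7A, a ribosomal protein, and MED22 of Mediator, with the summit upstream of both starts. With an NRF1 core were DNAJA3, a mitochondrial HSP40 chaperone (fold 41.1) and DNMT1, the maintenance DNA methyltransferase (11.5).

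GC boxes were the most frequent element, yet 47.3% of these peaks had none. At least 1 GGGCGG lay within 50 bp of the summit in 1846 peaks (52.7%, 51 to 54.3%), against 59.5% of shared peaks (57.9 to 61.1%), 19.9% of antibody 2 only peaks (17.1 to 23%) and 35.7% of protein-coding starts. The flanking windows at 500 bp had 18.1% and 19.0%. One box was found in 30.2%, 2 boxes in 14.4%, 3 in 5.45% and 4 or more in 2.62%. A GC box was in 9 of the strongest 50 peaks (9.77 to 30.8%), 32 of the strongest 100 and 295 of the strongest 500. The very strongest peaks thus held one less often than their fold band as a whole. By fold band the share ran 57.7%, 63.3%, 55.9% and 38.4%, strongest first. In shared peaks it was 70.7%, 59.3%, 48.4% and 35.8%. Windows with a GC box were thus less frequent than among shared peaks in the strongest band (53 to 62.2% against 68.4 to 73.0%), and those of the band just below the median held one more often (53 to 58.7% against 44.7 to 52.1%).

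Elements of the ETS family and NF-Y were less frequent than in shared peaks. The ETS core was in 9.70% (8.76 to 10.7%) against 16.5% (15.4 to 17.8%) of shared peaks, 25.7% (22.7 to 29.0%) of antibody 2 only peaks and 12.3% of protein-coding starts. It varied little with fold, from 8.21 to 10.8% over the bands, while shared peaks went from 11.0% in the strongest band to 19.1%, 22.9% and 19.5% in the others. The CCAAT box was in 17.9% (16.7 to 19.2%) against 26.4% (25.1 to 27.9%) of shared peaks and 9.35% of starts. By fold band, strongest first, it was in 20.5%, 21.5%, 19.3% and 12.3%, against 30.2%, 28.1%, 21.7% and 15.0% of shared peaks. In the bands below the median fold the intervals of the groups overlapped. The C/EBP site (TTGCNNAA), found in 15.4% of antibody 2 only peaks, was in 1.68%, and the ZNF143 site in 0.799% against 1.62% of shared peaks. A TATA box (TATAAA) was in 0.884%, against 5.24% of protein-coding start windows. No GC box, CGCG element, NRF1 core, ETS core, CCAAT box, CRE (TGACGTCA), E-box (CACGTG), YY1 core (AAGATGGCG) or ZNF143 site was found in 1052 peaks (30.0%). All motifs were sought on both strands, and a match is a run of letters, not evidence that the factor was bound.

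**Figure D3:**
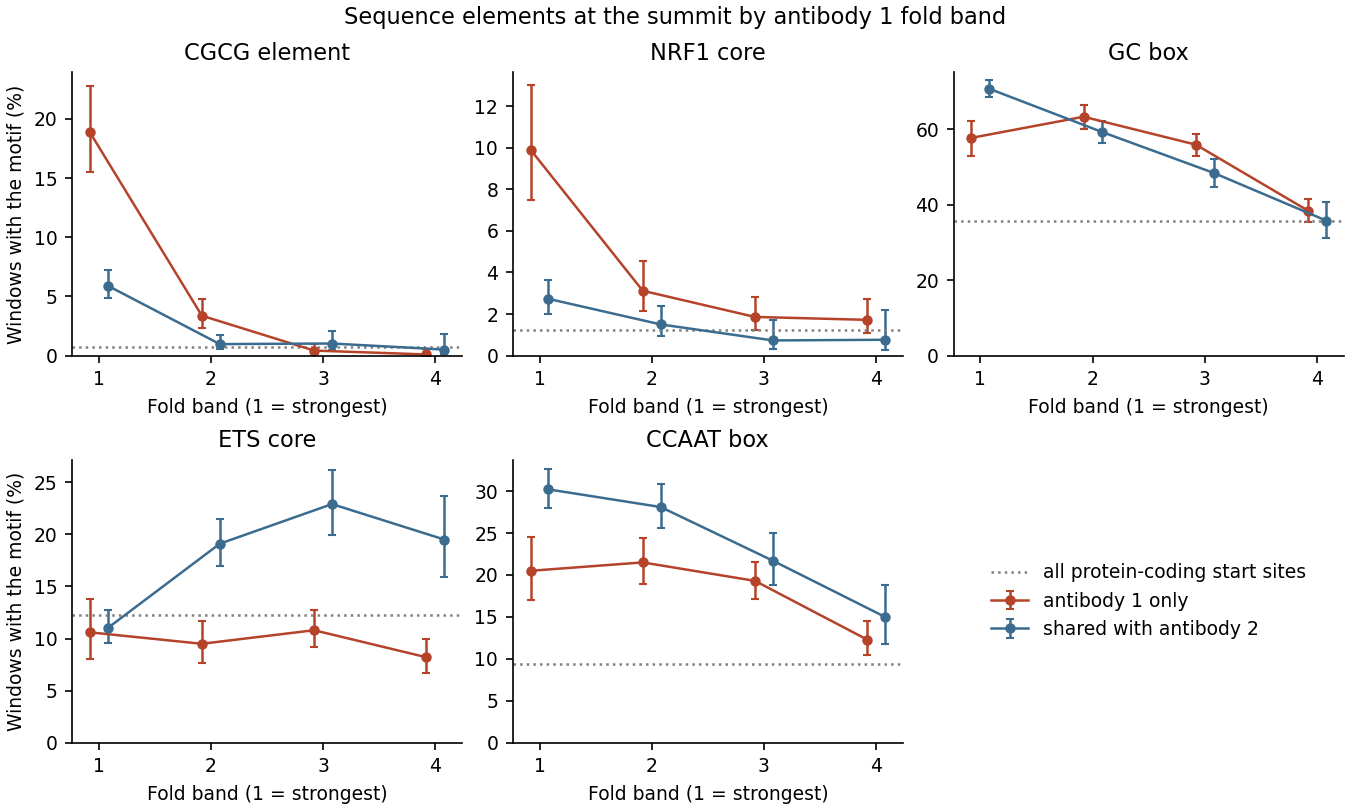
Percent of windows of 50 bp to either side of the summit with each element, by band of antibody 1 fold (1 is the strongest), in antibody 1 only and shared promoter peaks. Bars are 95% Wilson intervals and the dotted line is the share at all protein-coding starts. The CGCG element reaches 18.9% in the strongest antibody 1 only band against 5.91% in shared peaks, and the ETS core separates the groups in the 3 weaker bands.

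Base composition was close to that of shared peaks and start sites, while antibody 2 only peaks had less GC. Windows of 250 bp to either side of the summit had a median GC content of 65.2%, against 63.5% for shared peaks, 59.5% for antibody 2 only peaks and 64.7% for protein-coding starts. The ratio of observed to expected CpG was 0.792 against 0.795 for shared peaks and 0.729 for antibody 2 only peaks.

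Summits clustered just upstream of start sites, with a median position 39 bp upstream. They were less tightly placed than those of shared peaks, since 60.0% (58.4 to 61.6%) lay within 100 bp of the nearest start, against 67.5% (66.0 to 69.0%). The summit was downstream of the start in 27.6% (26.2 to 29.1%), against 23.5% (22.2 to 24.9%) of shared peaks and 38.1% (34.6 to 41.7%) of antibody 2 only peaks. It was in an intergenic position in 35.2%, in an intron in 31.3%, in an untranslated exon part in 19.3%, in a non-coding exon in 11.4% and in a coding exon in 2.85%. The nearest start belonged to a protein-coding gene in 81.5%, to an lncRNA in 16.5% and to another class in 2.00%, each within 2 percentage points of shared peaks.

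Promoters with protein-coding starts on both strands were less common among them. Orientation was not checked, so pairs of starts that are not divergent can be counted. Protein-coding starts of both strands lay within 1 kb of the summit in 390 peaks (11.1%, 10.1 to 12.2%), against 718 shared peaks (19.1%, 17.9 to 20.4%). The antibody 2 only peaks had 11.0% (8.91 to 13.5%). Among antibody 1 only peaks with the CGCG element the share was 18.6%.

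**Figure D4:**
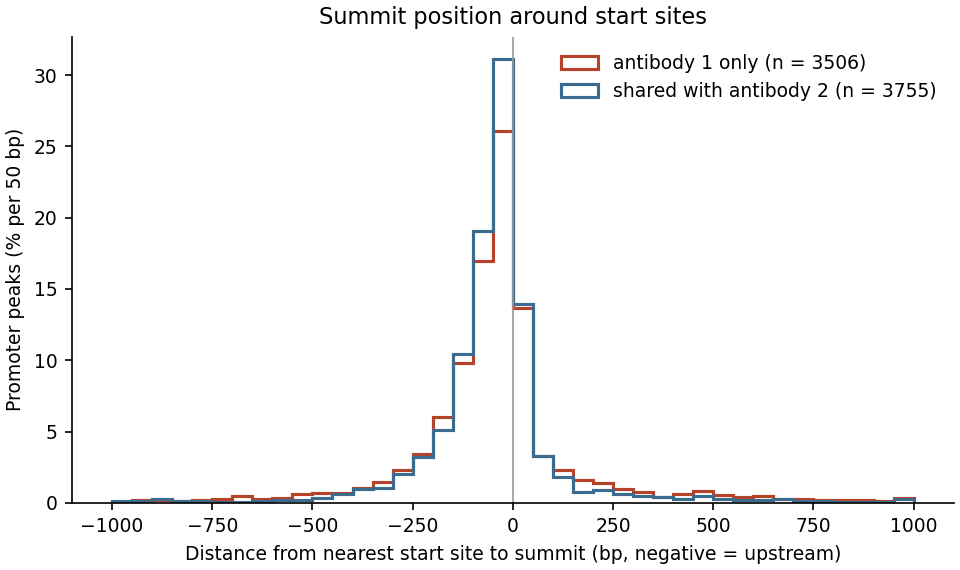
Distance from the nearest transcript start to the summit in 50-bp bins (negative is upstream), in percent of antibody 1 only and shared promoter peaks. Both distributions peak just upstream of the start, and 60.0% and 67.5% lie within 100 bp of it.

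At the level of genes, 3547 of 19970 protein-coding genes (17.8%) had an antibody 1 only summit within 1 kb of a start. Of these, 3232 (16.2% of all genes) had no antibody 2 summit within that distance, and 315 also had one or a shared peak. Shared peaks reached 4190 genes (21.0%). More than 1 antibody 1 only peak was present at 164 genes. CACNB1, CIRBP (a cold-inducible RNA-binding protein, also with a shared peak), ERF (an ETS repressor), FUZ, KCNIP2, MAGEA4, STK32C and WIZ had 3. By chromosome, the share of antibody 1 promoter peaks in this group was between 41.3% on chromosome 14 and 59.2% on X. A summit counted for every gene with a start within 1 kb, also where a start of another gene was nearer.

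Lists of housekeeping machinery had shares not far above that of all protein-coding genes, and for most of them shared peaks were more frequent. Cytosolic ribosomal proteins had an antibody 1 only peak at 21 of 87 genes (24.1%) and a shared peak at 53. Mitochondrial ribosomal proteins had 21 of 79 and 41 shared, and the genes of oxidative phosphorylation 20 of 80 and 32 shared. Splicing factors had 22 of 85 and 48 shared, and mitosis genes 17 of 61 and 35 shared. Against the background of 17.8%, these shares were between 24.1 and 27.9%, and the intervals for cytosolic ribosomal proteins (16.4 to 34.1%) and oxidative phosphorylation (16.8 to 35.5%) included it. Intervals for the other lists began at 17.8% for splicing factors, 18.1% for mitochondrial ribosomal proteins and 18.2% for mitosis genes. Those for translation factors (15.5 to 35.0%) and DNA repair (16.4 to 39.6%) also included the background. The named peaks of RPL27A (fold 24.0), MRPL57 (82.9), MRPL45 (13.9), SRSF6 (11.4) and NDUFA8 (12.4) were all within 100 bp of their start. Starts of TRIM66 and MORN5 were nearer to the summits at RPL27A and NDUFA8. RPL27A also had a shared peak.

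Higher shares were found for synthesis and replication. In cholesterol synthesis 13 of 29 genes (44.8%, 28.4 to 62.5%) had an antibody 1 only peak, against 11 with a shared peak. The strongest were at LSS, which closes the sterol rings (fold 12.8), NSDHL (11.3) and MVK, mevalonate kinase (9.26). The LSS summit lay nearer to a start of MCM3AP-AS1, and the MVK summit to one of MMAB. In DNA replication 18 of 50 genes (36.0%, 24.1 to 49.9%) had one, led by the polymerase subunits POLD2 (16.4) and POLA2 (15.8) and by GINS4 of the replicative helicase (14.5). Nucleotide synthesis had 11 of 32 (34.4%), with DUT, which removes dUTP (21.7), IMPDH2 of guanine nucleotide synthesis (8.11) and PFAS of purine synthesis (6.84). The POLA2 summit lay nearer to a start of ENSG00000287821, and the PFAS summit to one of CTC1. The proteasome had 16 of 49 (32.7%).

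Genes of signaling and cell cycle control were also among them. The AP-1 and immediate early list had an antibody 1 only peak at 10 of 22 genes (45.5%, 26.9 to 65.3%), the highest share of the 32 lists, with folds of 11.3 at EGR1, 9.06 at the MAP kinase phosphatase DUSP1 and 8.40 at EGR2. The p53 and RB list had 13 of 32 (40.6%, 25.5 to 57.7%), with CDKN1B, the cell cycle inhibitor p27 (15.9), PMAIP1, the apoptosis gene NOXA (9.38), and CCNE2, cyclin E2 (8.05). The CCNE2 summit lay nearer to a start of NDUFAF6. Growth factors and receptors had 9 of 35 (25.7%, 14.2 to 42.1%) but a shared peak at only 2 of 35. The 3 strongest of these peaks were at FGFR4 (14.5), TGFB1 (13.9) and ERBB3 (9.46), and the TGFB1 summit lay nearer to a start of TMEM91.

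Few tissue-restricted genes had such a peak, and few had a shared peak. Clustered protocadherins had 0 of 53, which allows a share of up to 6.76% by the Wilson interval, olfactory receptors 1 of 415 (OR1F1, fold 4.21), keratins 1 of 55 (KRT80) and the bone lineage list 1 of 20 (SP7, the osteoblast factor osterix, fold 6.70). Collagens had 5 of 44, with COL6A1 at a fold of 20.8, and HOX genes 4 of 39. Shared peaks were at 0 protocadherins, 0 olfactory receptors and 1 keratin, and at 2 genes each of the bone, collagen and HOX lists. The intervals for bone lineage (0.888 to 23.6%), collagens (4.95 to 24.0%) and HOX genes (4.06 to 23.6%) included the background. In all, the interval of 16 lists lay above 17.8% and that of 3 lists, the protocadherins, olfactory receptors and keratins, below it.

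**Figure D5:**
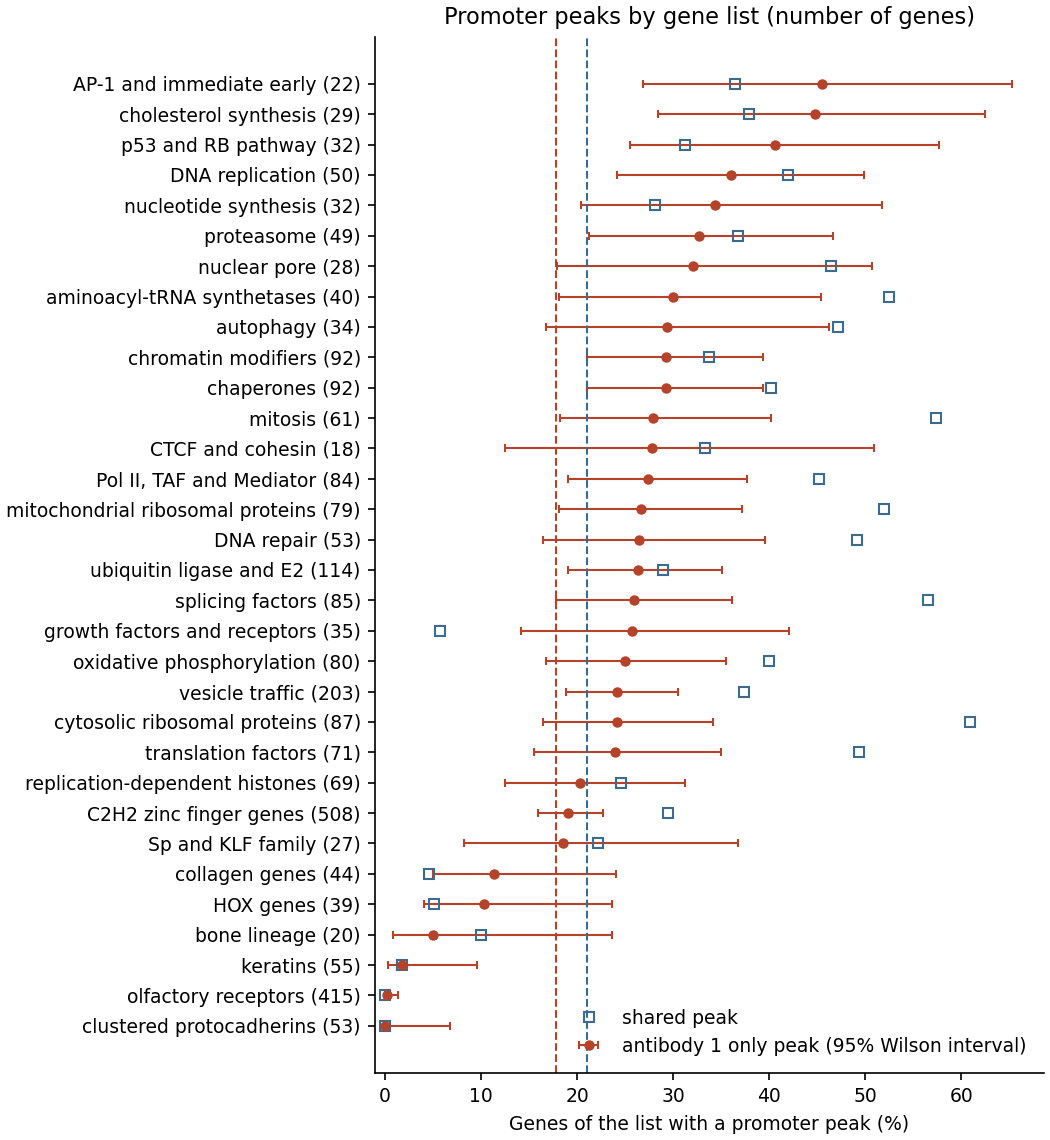
Percent of each gene list with an antibody 1 only promoter peak (circles, 95% Wilson intervals) and with a shared peak (squares). Dashed lines give the shares among all protein-coding genes, 17.8% and 21.0%. Ribosomal protein genes lie far to the right for shared peaks, and growth factor and receptor genes have more antibody 1 only than shared peaks.

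The Sp and KLF family, which shares the zinc fingers of Sp1, had an antibody 1 only peak at 5 of 27 genes, near the background. SP1 itself had one with a fold of 17.9, 137 bp downstream of a start and in an intron, beside a shared peak. The others in order of fold were led by SP7 and KLF13 (6.47). Among genes of CTCF and cohesin 5 of 18 had one, with folds of 24.6 at RAD21, 11.7 at SMC3 and 8.65 at CTCF. Starts of MIR3610 and CTCF-DT were nearer to the summits at RAD21 and CTCF.

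CTCF, which binds a long recognition sequence and helps set chromatin loops, was measured in other cells and was not used in the choice of peaks. CTCF peaks of both replicates overlapped 621 of the 3506 peaks (17.7%, 16.5 to 19.0%), against 20.2% (19.0 to 21.5%) of shared and 18.8% (16.1 to 21.8%) of antibody 2 only peaks. Replicate 1 alone gave 26.4% against 30.3% of shared peaks, and replicate 2 alone gave 18.6% against 21.3%. The values of the replicates for 1 group lay further apart than those of the groups in 1 replicate. An overlap of 1 bp was enough here and width was not matched, with medians of 457 bp against 656 bp for shared peaks. CTCF and Sp1 summits within 100 bp of each other, in both replicates, were found for 5.50% (4.80 to 6.31%) of antibody 1 only peaks. For shared peaks this was 4.63% (4.01 to 5.35%), an overlapping interval. At overlapped peaks the median CTCF fold was 22.9 in replicate 1 and 23.7 in replicate 2, against 14.6 and 15.5 at shared peaks, with quartiles from 6.69 to 89.2 and from 5.84 to 75 in replicate 1.

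CTCF overlap did not go with a strong Sp1 peak. By fold band, strongest first, it was 14.6%, 17.2%, 16.9% and 20.3%, with overlapping intervals for neighbors (11.7 to 18.2% and 18 to 22.9% at the ends). Shared peaks likewise showed no rise toward strong peaks, at 20.6%, 19.2%, 20.0% and 21.8%. Ranked by the lower CTCF fold of the replicates, the antibody 1 only peak of ACBD4 came first, with 287 in replicate 1 and 156 in replicate 2, and there the Sp1 fold was 3.92. TMEM170A had CTCF folds of 214 and 154 with an Sp1 fold of 7.24, and ZNF385A had 217 and 148 with 4.94. The lncRNAs ENSG00000254510 and SNHG17 completed the first 5 in this order. The CTCF core was present within 50 bp of the summit in 14 of the 3506 peaks.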

How the data were processed

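ChIP-seq libraries of 2 Sp1 antibodies, IgG and 2 CTCF replicates were used as peak lists, 1 per library. Per the submitters' processing notes, reads were trimmed with cutadapt 2.6, aligned to hg38 with Bowtie2 2.4.5, filtered with SAMtools 1.15.1 and called with MACS2 2.2.7.1, and the study's methods give other versions of some of these. Each deposited list holds coordinates, a fold enrichment ratio, its −log10 p, its −log10 q and a score, which was not used. The lists end at a −log10 q between 1.30 and 1.43, and no read counts come with them. The 3 input libraries were not analysed here as peak lists.

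Peaks were compared by interval overlap of at least 1 bp. Starts, genes and exons came from GENCODE release 44, with 1 promoter distance of 1 kb. Motifs were sought within 50 bp of summits. The 32 gene lists, 17 motifs and the peaks themselves were chosen with earlier results of these data known. Peaks named were the 20 strongest whose nearest start was protein-coding, the 3 strongest per gene list and motif, those nearest each limit, the genes with most peaks and the 5 with the highest CTCF fold by the lower replicate. Printed windows are a selection from the strongest per motif outside exons and off chromosome 8, chosen after their values were seen. A peak that the rule names near the 1 kb limit and a window are not reported here. Overlap and interval functions were tested on simulated data. Python 3.11.15, pandas 2.3.3, SciPy 1.17.1 and pysam 0.24.0 were used. Alternatives changed the q limit, start annotation, distance, exclusion rule, strength, motif and overlap definition.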

Additional observations from a re-analysis of the deposited data

How the results depend on the processing

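Of 71 planned recalculations, 42 kept a value within the 95% interval of the reported one, or within 1.5 times for the number of peaks, and 29 moved outside it. These are counts, medians and shares of 1 group, with no direction to change. Keeping only the stronger 50% of antibody 1 peaks moved all 7 results, to 1276 peaks, a median fold of 10.5, CTCF overlap of 16.3%, GC boxes in 61.4%, the CGCG element in 8.78%, 18.8% downstream summits and 7.19% of protein-coding genes. A −log10 q of at least 3 gave a median fold of 6.86, GC boxes in 54.4%, 26.0% downstream and 16.8% of genes. The downstream share was 26.1% with starts within 500 bp, 23.6% with protein-coding genes only and 24.9% with canonical transcripts only, and the last 2 both gave a median fold of 6.84. The share of genes was 16.7% at 500 bp, 18.6% at 2 kb, 15.4% with canonical transcripts, 17.2% with no antibody 2 peak within 1 kb and 24.3% with no antibody 2 summit within 100 bp, where the median fold was 7.1. CTCF overlap was 5.50% for summits within 100 bp, 5.88% for reciprocal overlap of 50%, and from 18.6 to 26.4% with either replicate left out. GC boxes were in 70.1% of windows of 100 bp to either side and the longer GGGGCGGGG in 18.8%. The CGCG element was in 4.05% of the wider windows and, with 1 mismatch, in 9.58%, against 9.48% of shared peaks. Added after seeing the data, the NRF1 core with 1 mismatch was in 12.9% against 10.0% of shared peaks, and its other 4 recalculations lay between 3.13 and 5.49%. The share with protein-coding starts of both strands lay between 11.1 and 13.9%.

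With 1 library per Sp1 antibody and no read counts, absence from the antibody 2 list and its depth or threshold cannot be told apart. No paired analysis was possible because the Sp1 lists have no replicate and the CTCF replicates share numbers only with input libraries that have no peak list here.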
